A study of Mus musculus with 17 samples.

Results

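The 10 genes Tnxb, Bicc1, Ankrd44, Hmcn1, Syt1, St18, Alkal1, Glrp1, Abcb1a and Abcb1b were followed in RNA sequencing of C2C12, a line of mouse myoblasts able to fuse into skeletal muscle fibres in culture. They were taken by symbol from a table of 15062 genes, and all 10 were in it. They had been picked because their levels were shifted in the same direction in cells carrying SRF-FOXO1, SRF-ICA1L or SRF-RELA, relative to cells carrying pMSCV. Every value of those fusion lines or of pMSCV is therefore a description here and carries no test. The list had been proposed as genes outside the extracellular matrix. That holds only in part, since Tnxb encodes tenascin X and Hmcn1 encodes hemicentin 1, both secreted proteins of the matrix.

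All groups were C2C12 myoblasts grown in serum-containing medium. They carried pMSCV (a retroviral vector, here taken as the control), SRF, SRF-FOXO1, SRF-ICA1L, SRF-RELA or SRF-PDGFRB. The first 5 groups had 3 libraries each, and SRF-PDGFRB had 2. The labels give replicate numbers, but do not say whether a line is 1 clone, whether replicates were separate cultures, or of which species the introduced sequences are, so the spread between libraries may be partly technical. Library totals lay between 20901442 and 23543734 counts. Srf itself was at 66.6 to 93.8 CPM (counts scaled to library size) in pMSCV and 678 to 1673 CPM in SRF. Among the fusion lines only SRF-ICA1L lay wholly above pMSCV, at 121 to 279 CPM. SRF-RELA had 85.0 to 154.5 CPM, SRF-FOXO1 71.8 to 105 CPM and SRF-PDGFRB 70.5 and 81.4 CPM. Each of the partner genes Foxo1, Ica1l, Rela and Pdgfrb overlapped pMSCV in its own fusion line. All 8 myoblast markers examined were in the table. Their summed level was 1770 to 2220 CPM in pMSCV, 860 to 1540 CPM in SRF, 262 to 351 CPM in SRF-FOXO1, 565 to 1280 CPM in SRF-ICA1L, while SRF-RELA had 462 to 824 CPM. The 2 SRF-PDGFRB libraries stood apart from each other, with 249 CPM in replicate 1 and 2470 CPM in replicate 2. Several of the 10 genes differed between them too. The comparison of this line with SRF is therefore also shown without each library, while its differences from pMSCV use both.

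SRF, serum response factor, is a DNA-binding transcription factor that acts through CArG boxes and, with its cofactors, controls genes of the actin cytoskeleton and of muscle. In a fusion gene, part of SRF is joined to another protein. FOXO1 is a forkhead transcription factor, RELA is a subunit of NF-kappaB, PDGFRB is a receptor tyrosine kinase for platelet-derived growth factor, and ICA1L is related to islet cell autoantigen 1. The 10 genes belong to no single pathway. Tenascin X organises collagen in connective tissue, and hemicentin 1 is a very large relative of the fibulins found at basement membranes. Bicc1 encodes an RNA-binding protein of the kidney and other epithelia that binds partner proteins such as Anks3 and Anks6 and the CCR4-NOT complex. Ankrd44 encodes an ankyrin-repeat subunit of protein phosphatase 6. Syt1 is the calcium sensor for synaptic vesicle release, and St18 is a zinc finger transcription factor of the MYT family. Alkal1 is a secreted ligand of the receptor kinases LTK and ALK. Glrp1 is glutamine repeat protein 1. Abcb1a and Abcb1b are both rodent counterparts of human ABCB1, the P-glycoprotein that pumps drugs out of cells.

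On the GRCm38 genome, 5 of the 10 genes lay on chromosome 1, which carried 6.16% of the 15050 table genes that could be placed. They were Alkal1 (chr1:6359218-6394731, plus strand), St18 (chr1:6487231-6860940, plus strand), Ankrd44 (chr1:54645340-54926387, minus strand), Glrp1 (chr1:88499871-88510066, minus strand) and Hmcn1 (chr1:150562524-150993435, minus strand). Alkal1 and St18 were 92.5 kb apart, with 1 RefSeq gene (Gm19026) between them. Bicc1 (chr10:70922832-71159700, minus strand) and Syt1 (chr10:108497650-109010982, minus strand) shared chromosome 10, and Tnxb lay at chr17:34670535-34719815 on the plus strand. Abcb1a (chr5:8660077-8748575) and Abcb1b (chr5:8798147-8866315) were on the plus strand of chromosome 5, 49.6 kb apart with 0 genes between them. All 10 are protein-coding in the annotation. No gene that overlaps one of them was in the table of counts. Antisense exons are annotated across 349 exonic bases of Bicc1, 373 of Ankrd44, 399 of Hmcn1, 553 of Abcb1a and 143 of Abcb1b, and whether the counts separate strands is not given in the sources used here.

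RefSeq promoter windows on GRCm38.p6, from 250 bases before to 50 after a start, were at hand for 7 of the 10 genes. The windows are shown for 4 genes, a pair that was higher and a pair that was lower in the fusion lines, because within each pair of windows below the same motif occurred once in a gene of either direction. In Tnxb (chr17:34670285-34670584, plus strand) and Glrp1 (chr1:88510017-88510316, minus strand) the capitals mark the AP-1 motif TGACTCA or its reverse complement. In Hmcn1 (chr1:150993386-150993685, minus strand) and Abcb1a (chr5:8566841-8567140, plus strand) they mark the forkhead motif TGTTTAC or its reverse complement. The Abcb1a window belongs to a RefSeq start upstream of the gene start given above.
Tnxb: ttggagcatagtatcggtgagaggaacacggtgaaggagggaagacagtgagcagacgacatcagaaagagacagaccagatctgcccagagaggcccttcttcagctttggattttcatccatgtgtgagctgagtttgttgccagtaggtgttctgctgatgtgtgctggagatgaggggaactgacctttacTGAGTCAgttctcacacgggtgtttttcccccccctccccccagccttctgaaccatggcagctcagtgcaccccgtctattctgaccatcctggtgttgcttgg
Glrp1: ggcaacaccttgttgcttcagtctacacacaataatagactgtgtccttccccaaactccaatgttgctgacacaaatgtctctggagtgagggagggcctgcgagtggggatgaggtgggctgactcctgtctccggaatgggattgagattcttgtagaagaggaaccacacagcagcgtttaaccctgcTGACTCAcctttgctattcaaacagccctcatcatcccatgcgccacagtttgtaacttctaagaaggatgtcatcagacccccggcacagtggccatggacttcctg
Hmcn1: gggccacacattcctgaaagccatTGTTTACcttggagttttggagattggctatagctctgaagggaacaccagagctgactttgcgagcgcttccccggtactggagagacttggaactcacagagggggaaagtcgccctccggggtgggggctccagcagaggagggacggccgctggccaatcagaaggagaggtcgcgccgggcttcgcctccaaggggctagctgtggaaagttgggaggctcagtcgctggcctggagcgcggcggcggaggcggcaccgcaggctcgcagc
Abcb1a: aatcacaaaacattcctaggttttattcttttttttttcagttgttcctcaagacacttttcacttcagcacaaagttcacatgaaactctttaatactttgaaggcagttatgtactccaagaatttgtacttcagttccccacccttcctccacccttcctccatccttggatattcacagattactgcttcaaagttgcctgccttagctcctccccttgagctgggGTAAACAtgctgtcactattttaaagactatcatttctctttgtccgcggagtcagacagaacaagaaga

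The AP-1 motif began 55 bases before the start in Tnxb and 58 bases before it in Glrp1. It was present in 5.2% of all 32851 windows. The forkhead motif began 226 bases before the start in Hmcn1 and 20 bases before it in Abcb1a, and was present in 3.65% of all windows. The E-box CAGCTG, a motif bound by myogenic factors, was found in a window of Syt1 and in that of Abcb1b, against 16.3% of all windows. Both strands were searched for every motif, and no window of the 10 genes held more than 1 of them. Neither the CArG box (1.63% of all windows) nor the NF-kappaB site (8.46%) was found in the windows of the 7 genes. These matches are descriptions of the sequence, and binding was not measured.

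Levels can be compared between genes only per length, here that of all annotated exons of a gene. Transcripts can be shorter, so the order of genes may depend on this length. On that scale, as RPKM (CPM per kilobase of exon), pMSCV cells had the highest level for Glrp1, 9.67 ± 8.54 RPKM (mean ± SD, n = 3, as for the other pMSCV levels here). Abcb1b followed at 3.25 ± 1.38, Syt1 at 2.09 ± 2.15, Bicc1 at 1.84 ± 0.944 and Ankrd44 at 1.004 ± 0.212 RPKM. The remaining 5 genes were below 1 RPKM: Hmcn1 at 0.587 ± 0.360, Abcb1a at 0.342 ± 0.0810, St18 at 0.197 ± 0.0701, Tnxb at 0.114 ± 0.0426 and Alkal1 at 0.0319 ± 0.0276 RPKM. In SRF-FOXO1 the order was different, with Bicc1 at 12.7 ± 2.38, Abcb1b at 6.12 ± 1.89, Ankrd44 at 4.83 ± 1.05 and Abcb1a at 3.95 ± 2.55 RPKM (SD, n = 3 each) ahead of the other 6. All further levels are in CPM, and differences are log2 fold changes of the fitted model with their standard error (SE).

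**Figure D1:**
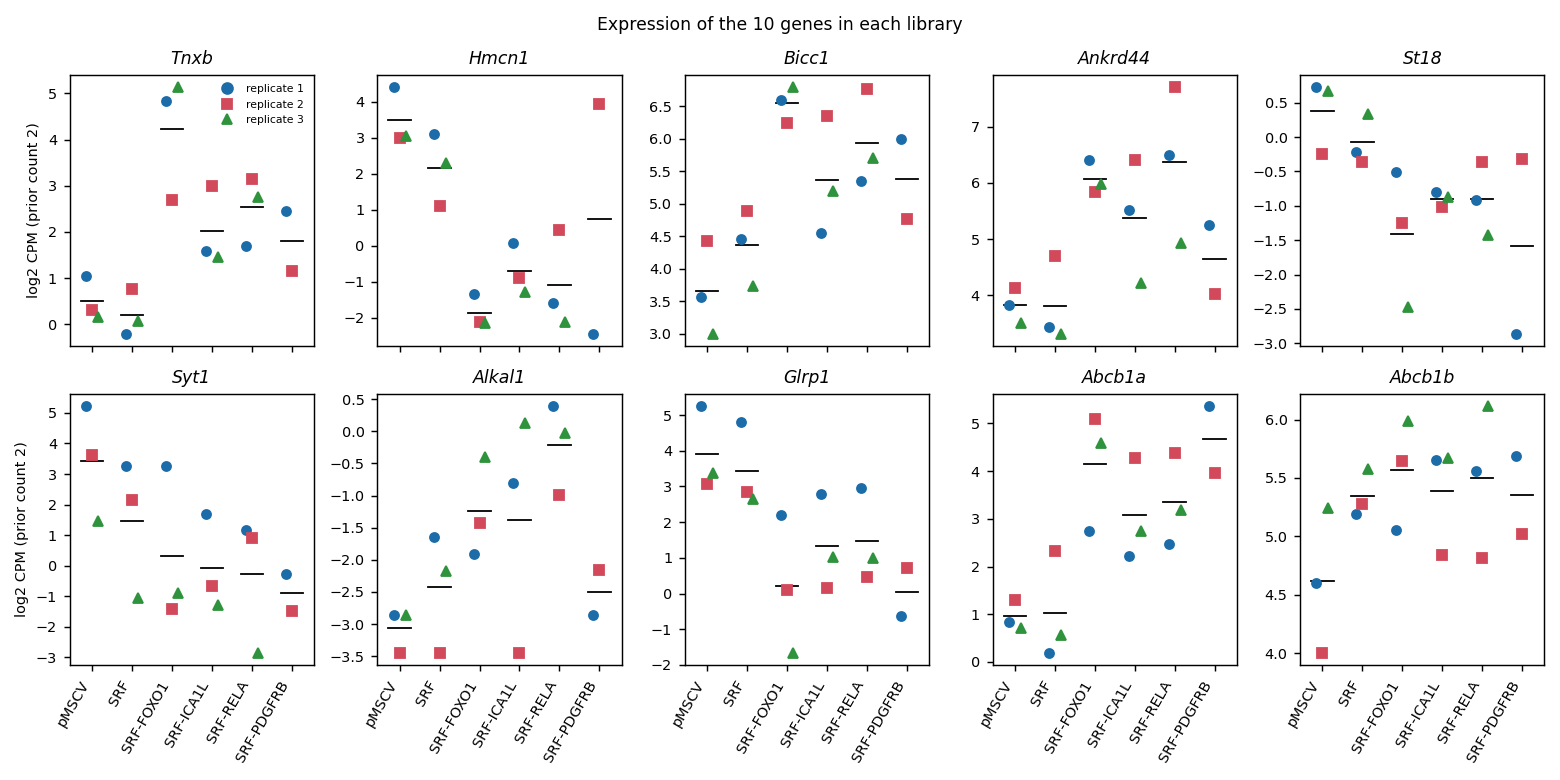
Level of each of the 10 genes in every library, as log2 CPM with a prior count of 2, by group; symbols mark the replicate number and the black line is the group mean. Tnxb, Bicc1, Ankrd44, Alkal1 and Abcb1a sit higher and Hmcn1, St18, Syt1 and Glrp1 lower in SRF-FOXO1, SRF-ICA1L and SRF-RELA than in pMSCV by group mean, and the 2 SRF-PDGFRB libraries lie far apart for Hmcn1 (0.0918 and 15.1 CPM).

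The matrix genes differed from pMSCV in opposite directions. Tnxb (ENSMUSG00000033327) was at 1.98, 1.15 and 1.03 CPM in replicates 1, 2 and 3 of pMSCV, and those of SRF had 0.772, 1.60 and 0.959 CPM. It stood at 28.4, 6.33 and 35.2 CPM in SRF-FOXO1, 3.13, 8.76 and 6.71 CPM in SRF-RELA, 2.94, 7.90 and 2.66 CPM in SRF-ICA1L, and 5.42 and 2.14 CPM in SRF-PDGFRB. Every fusion library was above every pMSCV and SRF library. Relative to pMSCV, the log2 difference was 4.07 (SE 0.70) in SRF-FOXO1, 1.70 (SE 0.65) in SRF-ICA1L, 2.16 (SE 0.66) in SRF-RELA and 1.44 (SE 0.70) in SRF-PDGFRB. Within SRF-FOXO1, replicate 2 was 5.56 times lower than replicate 3. The summed level of 7 tendon and fibroblast markers also varied there, from 121 to 1920 CPM, with its highest value in replicate 3. In pMSCV that sum ran from 95 to 569 CPM, with its highest value in replicate 2, where Tnxb was at 1.15 CPM. The part of these markers in the result was not tested, and the marker Tnmd was not in the table.

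Hmcn1 (ENSMUSG00000066842) was at 21.3, 7.94 and 8.13 CPM in pMSCV, and SRF libraries had 8.50, 2.06 and 4.88 CPM. It was at 0.305, 0.141 and 0.134 CPM in SRF-FOXO1, which is 7, 3 and 3 counts, at 0.963, 0.447 and 0.320 CPM in SRF-ICA1L, and at 0.245, 1.28 and 0.140 CPM in SRF-RELA. All libraries of these 3 fusion lines were below all pMSCV and SRF libraries. The SRF-PDGFRB line gave 0.0918 CPM (2 counts) in replicate 1 and 15.1 CPM (340 counts) in replicate 2, the first below and the second within the range of pMSCV. Against pMSCV the fitted log2 difference was -5.96 (SE 1.36) in SRF-FOXO1, -4.42 (SE 1.23) in SRF-ICA1L, -4.47 (SE 1.23) in SRF-RELA and -0.71 (SE 1.18) in SRF-PDGFRB. In bulk RNA, fewer cells that express a gene and less of its RNA per cell cannot be told apart, here and for every gene below.

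Bicc1 and Ankrd44, which encode the RNA-binding protein and the phosphatase subunit, were both higher in the fusion lines. Bicc1 (ENSMUSG00000014329) was at 11.7, 21.5 and 7.90 CPM in pMSCV, 21.9, 29.6 and 13.2 CPM in SRF, 96.1, 75.7 and 111 CPM in SRF-FOXO1, 40.9, 109 and 51.9 CPM in SRF-RELA, 23.3, 81.6 and 36.6 CPM in SRF-ICA1L, and 63.9 and 27.1 CPM in SRF-PDGFRB. Every fusion library was above every pMSCV library, while replicate 1 of SRF-ICA1L and replicate 2 of SRF-PDGFRB lay below the highest SRF library. The log2 difference from pMSCV was 2.78 (SE 0.55) in SRF-FOXO1, 1.78 (SE 0.54) in SRF-ICA1L, 2.29 (SE 0.54) in SRF-RELA and 1.73 (SE 0.58) in SRF-PDGFRB.

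Ankrd44 (ENSMUSG00000052331) was at 14.1, 17.3 and 11.3 CPM in pMSCV, and SRF libraries had 10.7, 26.0 and 9.81 CPM. It was at 85.3, 56.9 and 63.2 CPM in SRF-FOXO1, 90.1, 209 and 30.5 CPM in SRF-RELA, 45.6, 84.8 and 18.5 CPM in SRF-ICA1L, and 38.1 and 16.2 CPM in SRF-PDGFRB. The first 3 fusion lines did not overlap pMSCV, but SRF-PDGFRB did. Its group mean was highest in SRF-RELA, at 110 ± 91.1 CPM against 68.5 ± 14.9 CPM in SRF-FOXO1 (SD, n = 3 each), and these groups overlapped. Relative to pMSCV, the log2 difference was 2.27 (SE 0.66) in SRF-FOXO1, 1.80 (SE 0.65) in SRF-ICA1L, 2.95 (SE 0.68) in SRF-RELA and 0.93 (SE 0.70) in SRF-PDGFRB.

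The neuronal exocytosis gene Syt1 (ENSMUSG00000035864) was at 37.4, 12.3 and 2.66 CPM in pMSCV, where its highest library was 14.1 times its lowest. It was at 9.50, 4.34 and 0.392 CPM in SRF, 9.50, 0.281 and 0.446 CPM in SRF-FOXO1, 2.15, 1.78 and 0.0466 CPM in SRF-RELA, 3.13, 0.536 and 0.320 CPM in SRF-ICA1L, and 0.735 and 0.267 CPM in SRF-PDGFRB. Replicate 1 was the highest library in every group. SRF-RELA and SRF-PDGFRB lay wholly below pMSCV, whereas SRF, SRF-FOXO1 and SRF-ICA1L overlapped it. Against pMSCV the fitted log2 difference was -2.35 (SE 1.45) in SRF-FOXO1, -3.72 (SE 1.55) in SRF-ICA1L, -3.71 (SE 1.55) in SRF-RELA and -5.11 (SE 2.02) in SRF-PDGFRB. With 1 library left out, the first of these ran from -5.56, without replicate 1 of SRF-FOXO1, to -1.13. Among 7 neuron markers, Rbfox3, Snap25 and Syp were not in the table, and the summed level of the other 4 was 267 to 526 CPM in pMSCV, 53.3 to 122 CPM in SRF-FOXO1 and 92.8 to 248 CPM in SRF-ICA1L and SRF-RELA; the part of these markers was not tested.

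St18 (ENSMUSG00000033740), the MYT-family transcription factor, was low throughout. It had 34, 17 and 32 counts in pMSCV (1.57, 0.749 and 1.5 CPM) and 17, 15 and 27 counts in SRF (0.772, 0.686 and 1.18 CPM). It had 14, 7 and 2 counts in SRF-FOXO1, 9, 15 and 6 in SRF-RELA, 10, 9 and 10 in SRF-ICA1L, and 1 and 16 in SRF-PDGFRB. Each fusion line lay wholly below pMSCV, though narrowly, since replicate 2 of SRF-PDGFRB had 0.712 CPM and replicate 2 of pMSCV 0.749 CPM. Its log2 difference from pMSCV was -1.87 (SE 0.72) in SRF-FOXO1, -1.5 (SE 0.71) in SRF-ICA1L, -1.43 (SE 0.70) in SRF-RELA and -1.73 (SE 0.82) in SRF-PDGFRB.

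Its neighbour Alkal1 (ENSMUSG00000087247), the kinase ligand, was near the detection floor and differed in the other direction. It had 1, 0 and 1 counts in pMSCV, 5, 0 and 3 in SRF, 4, 6 and 15 in SRF-FOXO1, 25, 9 and 19 in SRF-RELA, 10, 0 and 22 in SRF-ICA1L, and 1 and 3 in SRF-PDGFRB. Against a floor of 3 counts per library for pMSCV, its mean level was at least 2.74-fold higher in SRF-FOXO1, at least 3.62-fold higher in SRF-ICA1L and at least 6.14-fold higher in SRF-RELA. No fold is given for SRF-PDGFRB against pMSCV, since both were at or under the floor. Replicate 2 of SRF-ICA1L had 0 counts, so that line overlapped pMSCV. Its receptors Alk and Ltk and the related ligand Alkal2 were not in the table.

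Glrp1 (ENSMUSG00000062310) was at 38.2, 8.24 and 10.3 CPM in pMSCV, 27.8, 7.04 and 6.14 CPM in SRF, 4.53, 0.985 and 0.223 CPM in SRF-FOXO1, 7.69, 1.28 and 1.91 CPM in SRF-RELA, 6.89, 1.03 and 1.92 CPM in SRF-ICA1L, and 0.551 and 1.56 CPM in SRF-PDGFRB. Replicate 1 was highest in every group of 3. All fusion lines were wholly below pMSCV, and SRF-FOXO1 and SRF-PDGFRB were wholly below SRF as well. The log2 difference from pMSCV was -3.30 (SE 1.12) in SRF-FOXO1, -2.53 (SE 1.08) in SRF-ICA1L, -2.38 (SE 1.07) in SRF-RELA and -4.16 (SE 1.40) in SRF-PDGFRB.

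The P-glycoprotein genes differed from each other. Abcb1a (ENSMUSG00000040584) was at 1.71, 2.38 and 1.54 CPM in pMSCV, and SRF libraries had 1.05, 4.94 and 1.39 CPM. It was at 6.58, 34.2 and 24.2 CPM in SRF-FOXO1, 5.48, 20.8 and 9.05 CPM in SRF-RELA, 4.57, 19.2 and 6.64 CPM in SRF-ICA1L, and 41.2 and 15.6 CPM in SRF-PDGFRB. Every fusion library was above every pMSCV library, and replicate 2 was the highest in each group of 3. Relative to pMSCV, the log2 difference was 3.52 (SE 0.81) in SRF-FOXO1, 2.43 (SE 0.79) in SRF-ICA1L, 2.64 (SE 0.79) in SRF-RELA and 3.92 (SE 0.86) in SRF-PDGFRB.

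Abcb1b (ENSMUSG00000028970) took more reads than Abcb1a in every library and was the copy with the smallest differences from pMSCV in the fusion lines. Per length of all annotated exons, its mean in SRF-PDGFRB was 5.25 ± 1.68 RPKM, against 5.18 ± 3.31 RPKM for Abcb1a (SD, n = 2 each). These values depend on the length taken. All annotated exons cover 7990 bases in Abcb1b and 5480 in Abcb1a, but the longest coding transcripts have 4306 and 4997 bases. By transcript length Abcb1b would therefore stand above Abcb1a. Abcb1b was at 24.2, 15.9 and 37.8 CPM in pMSCV, 36.4, 38.6 and 47.7 CPM in SRF, 33.2, 50.1 and 63.4 CPM in SRF-FOXO1, 47.2, 28.02 and 69.3 CPM in SRF-RELA, 50.3, 28.5 and 50.9 CPM in SRF-ICA1L, and 51.4 and 32.4 CPM in SRF-PDGFRB. Every group overlapped pMSCV. Against pMSCV the fitted log2 difference was 0.65 (SE 0.38) in SRF, 0.91 (SE 0.38) in SRF-FOXO1, 0.73 (SE 0.38) in SRF-ICA1L, 0.89 (SE 0.38) in SRF-RELA and 0.69 (SE 0.41) in SRF-PDGFRB.

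Of the reads counted to either copy, Abcb1a took 6.58%, 13% and 3.92% in replicates 1 to 3 of pMSCV and 2.79%, 11.3% and 2.84% in those of SRF. The share was 16.5%, 40.6% and 27.6% in SRF-FOXO1, 10.4%, 42.6% and 11.5% in SRF-RELA, 8.34%, 40.2% and 11.5% in SRF-ICA1L, and 44.5% and 32.4% in SRF-PDGFRB. The 95% Wilson interval ran from 10.1% to 16.6% in replicate 2 of pMSCV and from 37.3% to 43.2% in replicate 2 of SRF-ICA1L; such intervals cover counting error only. In every group of 3, replicate 2 had the highest share. The transcripts of Abcb1a and Abcb1b were 86.1% identical over 4263 aligned bases, and 10.6% of all stretches of 75 bases in Abcb1a also occur in Abcb1b. How such shared reads were counted is not given in the sources used here, so the split between the copies is uncertain to that extent.

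**Figure D2:**
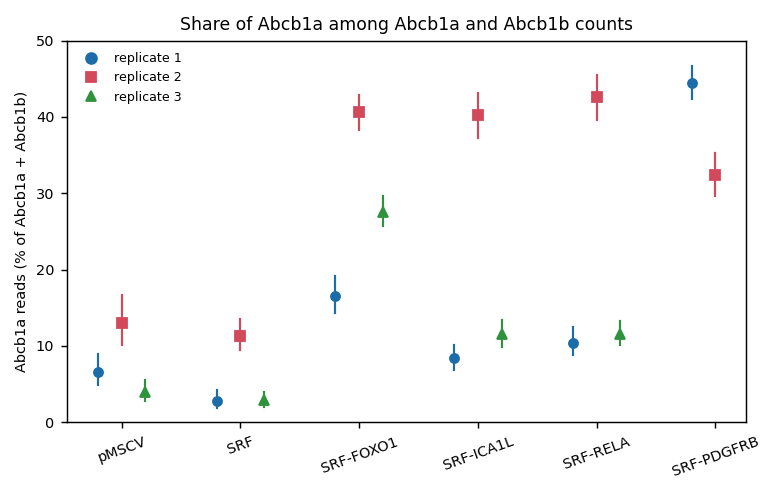
Share of Abcb1a among the reads counted to Abcb1a and Abcb1b in each library, in percent, by group; symbols mark the replicate number and bars are 95% Wilson intervals for counting error. The share is at most 13% in pMSCV and SRF libraries and reaches 40.6%, 40.2% and 42.6% in replicate 2 of SRF-FOXO1, SRF-ICA1L and SRF-RELA and 44.5% in replicate 1 of SRF-PDGFRB.

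Counted over the 10 genes, SRF-FOXO1 did not overlap pMSCV for 5 genes that were higher and 3 that were lower, against 11.4% and 11.6% of all genes in the table. For SRF-ICA1L there were 4 higher and 3 lower (4.67% and 5.54% of all genes), and for SRF-RELA 5 higher and 4 lower (5.19% and 5.91%). The genes were chosen on these comparisons, so the counts describe the choice. SRF-PDGFRB, which shares the pMSCV libraries with them, had 3 higher and 3 lower (8.67% and 7.23%). For SRF, 0 of the 10 genes were apart from pMSCV, against 9.16% of all genes.

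Libraries with the same number were compared next, because the numbers 1 to 3 marked libraries that deviated together in pMSCV, SRF, SRF-ICA1L and SRF-RELA. Pairing by number was not seen between pMSCV and SRF-FOXO1 or SRF-PDGFRB. Same-numbered deviations from group means correlated at -0.195 to 0.17 and -0.0857 to 0.172 there. Those of other numbers reached 0.188 and 0.249, so the ratios of these lines to pMSCV pair libraries by label only. Every gene of the 10 differed from pMSCV in the same direction in all 3 same-numbered pairs of SRF-FOXO1 and of SRF-RELA. In SRF-ICA1L, 9 of 10 did, with Alkal1 at 0 counts in both libraries numbered 2. The count was 7 of 10 for the 2 pairs of SRF-PDGFRB and 6 of 10 for SRF. The genes were chosen on SRF-FOXO1, SRF-ICA1L and SRF-RELA, so the counts of those lines describe the choice. The share of all genes with 1 direction in every pair was not computed, so none of these counts has a background. Within SRF-RELA the log2 ratio of Glrp1 varied between -2.61 and -2.30 over the pairs, although its level in pMSCV ranged from 8.24 to 38.2 CPM. Abcb1b behaved alike there, between 0.81 and 0.96. Hmcn1 in SRF-ICA1L lay between -4.34 and -3.90. The widest range was that of Hmcn1 in SRF-PDGFRB, from -6.87 to 0.92, and Hmcn1 in SRF-RELA ran from -5.99 to -2.55.

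**Figure D3:**
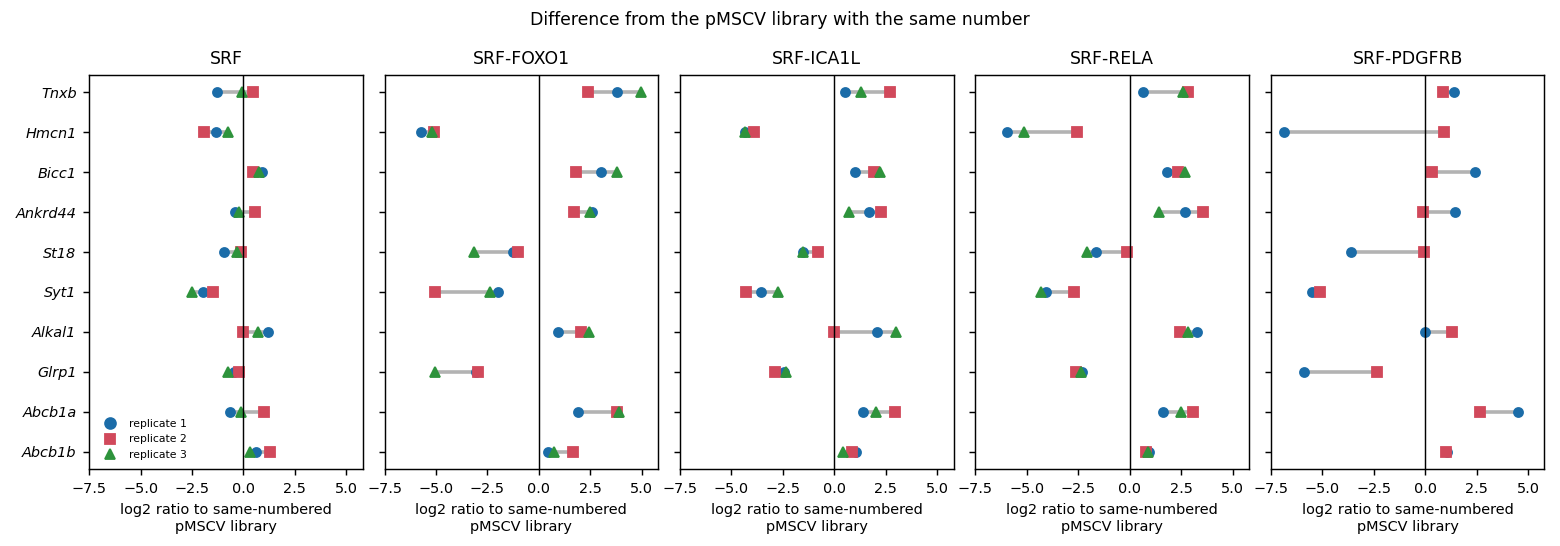
Log2 ratio of each gene between a library and the pMSCV library with the same number, with a prior count of 2, for the 5 other lines; symbols mark the number and grey bars the range. All ratios lie on 1 side of 0 for the 10 genes in SRF-FOXO1 and SRF-RELA, and the Hmcn1 ratios of SRF-PDGFRB run from -6.87 to 0.92. Pairing by number was not seen between pMSCV and SRF-FOXO1 or SRF-PDGFRB.

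The share of variance in log2 CPM that went with group and with replicate number, over those 12 libraries, separated the genes further. Hmcn1 (84.8% group, 3.98% number), Tnxb (76.6% and 9.46%) and St18 (71.2% and 1.9%) varied mostly with the group. Syt1 (45.2% and 49.6%) and Abcb1b (40.2% and 47.1%) varied more with the number, and Glrp1 (55.2% and 43.7%) with both. The medians over all genes were 19.5% for group and 49.6% for number. The genes were chosen on pMSCV, SRF-ICA1L and SRF-RELA, which are among these libraries, so their group shares partly describe the choice.

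The 3 lines on which the genes were chosen were also set side by side. Over the 10 genes, the median absolute log2 difference was 0.88 between SRF-FOXO1 and SRF-ICA1L (0.26 over all genes), 0.90 between SRF-FOXO1 and SRF-RELA (0.22), and 0.18 between SRF-RELA and SRF-ICA1L (0.12). Between SRF-RELA and SRF-ICA1L all 10 overlapped, while 2.24% of all genes did not. Tnxb was 2.37 higher on the log2 scale in SRF-FOXO1 than in SRF-ICA1L and 1.91 higher than in SRF-RELA, though the libraries overlapped through replicate 2 of SRF-FOXO1. Hmcn1 was lower in SRF-FOXO1 than in SRF-ICA1L without overlap (1 of the 10 genes, against 10.5% of all genes). Its log2 difference was -1.54 (SE 1.29, interval -4.31 to 1.24). The nearest libraries, replicate 1 of SRF-FOXO1 and replicate 3 of SRF-ICA1L, both had 7 counts of Hmcn1. They were apart only after scaling, at 0.305 and 0.320 CPM. Against SRF-RELA, 0 of the 10 were apart from SRF-FOXO1 (5.8% of all genes). With the groups of each gene in order of their mean, neighbours overlapped in all 5 places for 7 of the genes. The exceptions were Tnxb between SRF-PDGFRB and pMSCV, Hmcn1 between SRF and SRF-ICA1L, and St18 between SRF and SRF-RELA.

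The comparison of SRF-PDGFRB with SRF uses no library on which the genes were chosen, and it was the one tested. Of the 10 genes, 0 were called by edgeR's quasi-likelihood test at an adjusted p under 0.05, against 0.0531% of all genes (8 of 15062), while 3 had an unadjusted p under 0.05 (757 of all 15062 genes did) and DESeq2 called 1 (58 of all genes). In direction, 6 genes were higher and 4 lower in SRF-PDGFRB. The median log2 difference was 0.30 over the 10 and 0.03 over all genes, and the median absolute difference was 1.14 and 0.26. Tnxb and Abcb1a were higher without overlap (2 of 10, against 13% of all genes), and Glrp1 was lower without overlap (1 of 10, against 12.7%).

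Abcb1a had the largest difference in that comparison relative to its error: 28.4 ± 18.2 CPM (SD, n = 2) where SRF had 2.46 ± 2.15 CPM (SD, n = 3). Its log2 fold change was 3.53 (SE 0.85, 95% interval 1.71 to 5.35) with an adjusted p of 0.359 in edgeR. DESeq2 gave 3.54 and an adjusted p of 0.00509, and over the other settings the edgeR adjusted p ran from 0.0419, with replicate number as a block in 17 libraries, to 0.9999. Deviations of same-numbered SRF-PDGFRB and SRF libraries correlated at -0.392 to 0.271, and those of other numbers at up to 0.523. That block therefore does not rest on pairing seen between these lines. The log2 fold change of Abcb1a was 2.65 without replicate 1 and 4.07 without replicate 2 of SRF-PDGFRB.

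The level of Glrp1 was 1.05 ± 0.711 CPM in SRF-PDGFRB (SD, n = 2), where SRF had 13.7 ± 12.2 CPM (SD, n = 3), a log2 fold change of -3.69 (SE 1.37, interval -6.62 to -0.75, adjusted p 0.910 in edgeR). For Tnxb the log2 fold change was 1.76 (SE 0.71, interval 0.24 to 3.28, adjusted p 0.910 in edgeR). Both kept their direction without either SRF-PDGFRB library, with -3.14 and -4.62 for Glrp1 and 0.93 and 2.28 for Tnxb. The intervals of the other 7 genes included 0. Bicc1 was at 1.08 (-0.15 to 2.31), Ankrd44 at 0.81 (-0.69 to 2.31), Syt1 at -3.23 (-7.22 to 0.76) and St18 at -1.2 (-2.95 to 0.56). With 1 library of either group left out, Bicc1 ran from 0.32 to 1.57, Ankrd44 from 0.05 to 1.41 and Syt1 from -4.13 to -2.23. For Abcb1b the interval was narrower, at 0.03 (-0.86 to 0.93). Hmcn1 was at 0.56 (-1.91 to 3.04) with both libraries, 1.54 without replicate 1 and -5.72 without replicate 2, so that 1 library decided its direction. St18 was lower either way, at -0.32 without replicate 1 and -4.10 without replicate 2. For Alkal1 no fold is given at these counts.

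**Figure D4:**
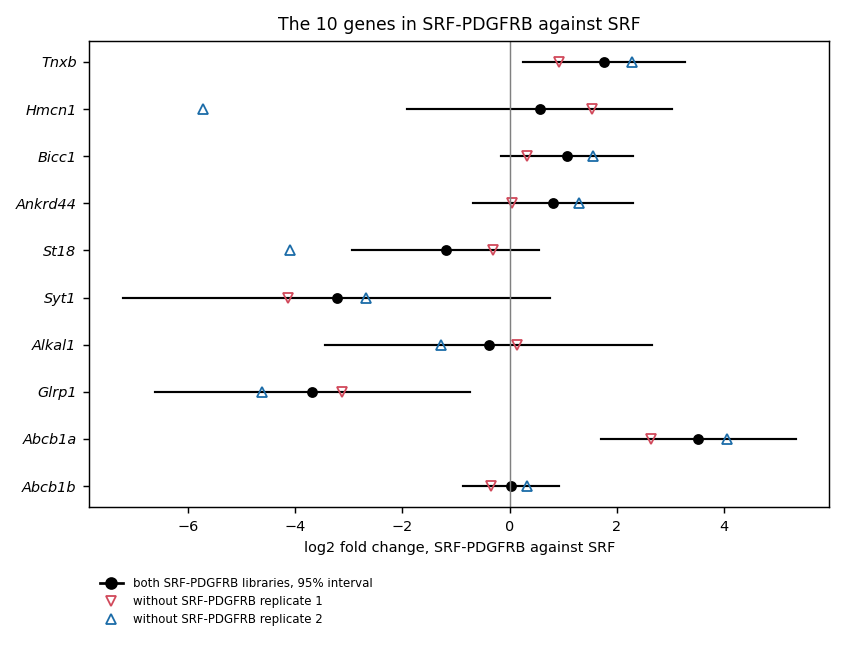
Log2 fold change of the 10 genes in SRF-PDGFRB (2 libraries) against SRF (3 libraries) with 95% intervals of the fit, and the value when either SRF-PDGFRB library is left out. The intervals of Abcb1a, Tnxb and Glrp1 exclude 0 before adjustment, and Hmcn1 moves from 1.54 to -5.72 depending on the library left out; the value drawn for Alkal1 rests on counts at the floor.

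Replicate 1 of SRF-PDGFRB had the lower myoblast level (249 CPM) and also the higher Abcb1a (41.2 against 15.6 CPM), Bicc1 (63.9 against 27.1 CPM) and Ankrd44 (38.1 against 16.2 CPM), and the lower Hmcn1 and St18. The 12 differentiated muscle markers in the table summed to 17.6 CPM in replicate 1 and 841 CPM in replicate 2, against 216 to 404 CPM in pMSCV. Over all 17 libraries, log2 CPM correlated with the summed myoblast markers at a Pearson r of 0.848 for Hmcn1, 0.795 for St18, -0.786 for Bicc1, -0.738 for Tnxb, -0.713 for Ankrd44 and -0.644 for Abcb1a. For Syt1 it was 0.2 and for Alkal1 -0.326. Without replicate 2 of SRF-PDGFRB the value of Abcb1a was -0.791 and that of Hmcn1 0.823. These libraries share groups, replicate numbers and scaling, so the values describe them only, and the part of the myoblast state in the differences was not tested.

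**Figure D5:**
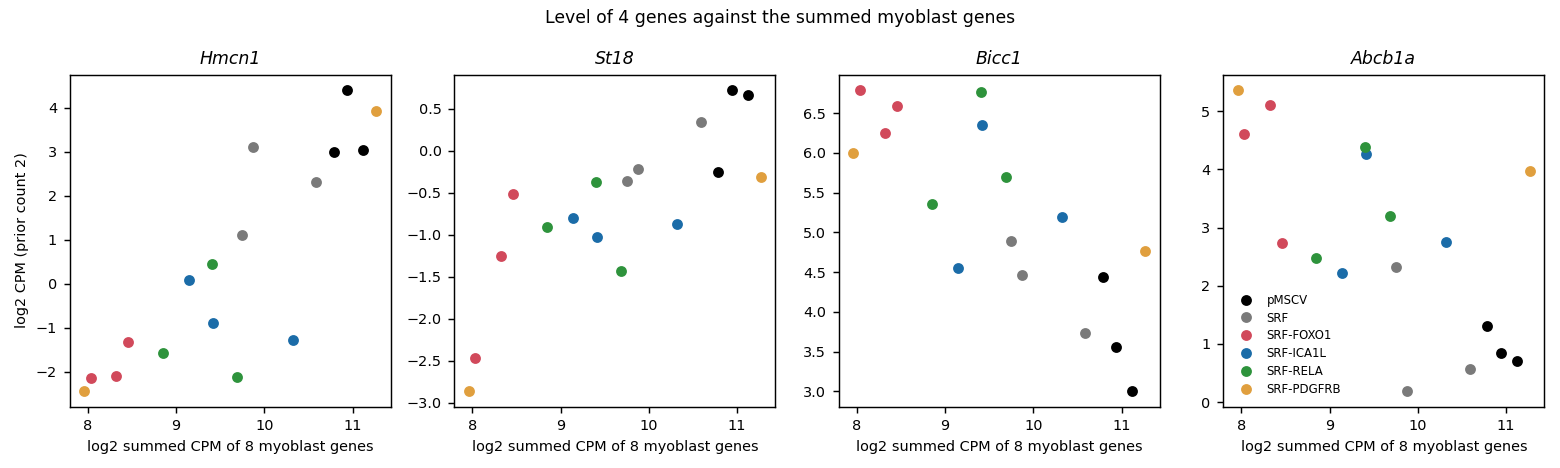
Log2 CPM (prior count 2) of Hmcn1, St18, Bicc1 and Abcb1a in the 17 libraries against the log2 of the summed CPM of 8 myoblast markers, coloured by group. Hmcn1 and St18 are higher (Pearson r 0.848 and 0.795) and Bicc1 and Abcb1a lower (-0.786 and -0.644) where the myoblast sum is higher, and 1 SRF-PDGFRB library lies at either end.

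Among the 10 genes themselves, Glrp1 and Abcb1a were the most opposed over the 17 libraries (Pearson r -0.908, and -0.747 for deviations from group means). Tnxb and Bicc1 (0.872), Bicc1 and Ankrd44 (0.842), and Bicc1 and Abcb1a (0.829) ran together. For deviations from group means these pairs had 0.644, 0.659 and 0.688. The genes were chosen for shifts between lines that are among the 17 libraries, so correlations over all of them partly describe the choice. Hmcn1 and St18 also ran together (0.818), with 0.799 within groups. That value includes the 2 SRF-PDGFRB libraries, which lay far apart for both genes (2 and 340 counts of Hmcn1, 1 and 16 of St18). It was not computed without them, so how far it rests on this line is not known. The adjacent copies Abcb1a and Abcb1b correlated at 0.308, and the neighbours Alkal1 and St18 at -0.325. Alkal1, which correlated with Ankrd44 at 0.324 over the 17 libraries, was opposed to it within groups (-0.735).

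Of 11539 other genes with a mean of at least 1 CPM, those most like Bicc1 over the 17 libraries were Phkb (r 0.978) and Nfix (0.969). Phkb, a subunit of phosphorylase kinase, had 56.6 ± 13.9 CPM in pMSCV, and SRF-FOXO1 had 147 ± 26.1 CPM (SD, n = 3 each). Those most like Tnxb were Ptprg (0.952) and B3glct (0.937), for Abcb1a Zmat1 (0.931) and Amigo1 (0.914), and for Ankrd44 Glrx (0.907) and Iftap (0.905). Syt1 was most like B3galt1 (0.885) and Plekho1 (0.878). Hmcn1 followed Abtb2 (0.941) and Spg7 (0.926), and St18 followed the muscle gene Xirp2 (0.909) and Hoxb4 (0.901). The closest to Abcb1b were Fxyd5 (0.936) and Tm9sf2 (0.922), and Alkal1 had the loosest likeness, to Rasl12 (0.799) and Bcl6b (0.777).

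Of the genes next to the 10 on the chromosome, 0 were called without a block in any of these comparisons with pMSCV. Of all genes, 0.71% were called in SRF-FOXO1 and 0% in SRF-ICA1L and SRF-RELA. For the 16 nearest other genes in the table (Atf6b and C4a beside Tnxb, Fam13c and Tfam beside Bicc1, Pgap1 and Sf3b1 beside Ankrd44, Prg4 and Ivns1abp beside Hmcn1, Pawr and Nav3 beside Syt1, Gm5694 beside St18, Rb1cc1 beside Alkal1, Mroh2a and Gm19589 beside Glrp1, Slc25a40 beside Abcb1a and Crot beside Abcb1b), the median absolute log2 difference from pMSCV was 0.56 in SRF-FOXO1, 0.37 in SRF-ICA1L and 0.51 in SRF-RELA. The same medians over all genes were 0.35, 0.22 and 0.23. With the block, 1 of the 16 neighbours was called in SRF-ICA1L and 1 in SRF-RELA, where 2.81% and 6.07% of all genes were called. In both it was Pawr, a gene known for a role in cell death. Lying 83.3 kb from Syt1, it was higher where Syt1 was lower, by 3.79 (SE 0.97, adjusted p 0.0625 in edgeR) in SRF-FOXO1, 2.57 (SE 0.94, adjusted p 0.677 in edgeR) in SRF-ICA1L and 3.05 (SE 0.95, adjusted p 0.450 in edgeR) in SRF-RELA. In the blocked fit of 12 libraries it was called in SRF-ICA1L (2.30, adjusted p 0.0207 in edgeR) and SRF-RELA (2.77, adjusted p 0.00582 in edgeR). It was at 0.784, 0.882 and 0.514 CPM in pMSCV and between 5.75 and 15.7 CPM in SRF-FOXO1, and its groups' replicates varied widely, from 0.623 to 10.2 CPM in SRF-PDGFRB.

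A list of 78 relatives and partners of the 10 genes, 57 of them in the table, was examined in the same fits. In SRF-FOXO1 against pMSCV, 17 of them had an unadjusted p under 0.05 in edgeR, as did 3151 of all 15062 genes. Only 1 was called higher and 0 lower (0.71% of all genes were called). It was Pkd2, the polycystin channel gene known as a target of Bicc1 protein, with a log2 fold change of 0.98 (SE 0.19, adjusted p 0.0383 in edgeR). No relative was called without replicate 1 or 3 of pMSCV or replicate 1 or 3 of SRF-FOXO1. DESeq2 called 12, and its count over all genes in each comparison is given in the last section. The median log2 difference of the 57 was 0.30, beside 0.00 over all genes. In SRF-ICA1L and SRF-RELA against pMSCV, 0 were called in edgeR (0% of all genes in either), and DESeq2 called 1 and 2. An unadjusted p under 0.05 in edgeR was found for 10 and 9 of them, and for 938 and 1212 of all 15062 genes.

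With the replicate block over 12 libraries, 3 relatives rose in SRF-ICA1L (2.81% of all genes were called), namely Hmcn2 (1.30), a close relative of Hmcn1, the elastic fibre gene Fbln5 (1.66) and the lipid transporter gene Abcg1 (1.29). In SRF-RELA 4 rose and 2 fell (6.07% of all genes were called). Those that rose were Fbln5 (1.55), the Bicc1 partner Anks6 (1.2), Pkd2 (0.63) and Abcg1 (1.80), and those that fell were Sytl2 (-1.33), a synaptotagmin-like gene of vesicle traffic, and Abcb8 (-0.72), a mitochondrial transporter. In SRF-PDGFRB against SRF, 0 relatives were called in edgeR (0.0531% of all genes were), and DESeq2 called 0. An unadjusted p under 0.05 in edgeR was found for 5 of them, and for 757 of all 15062 genes.

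By family, all 7 tenascins, hemicentins and fibulins, all 8 Bicc1 partners and all 6 subunits of phosphatase 6 were in the table. The member of each with the highest mean count over the 17 libraries, which is not scaled for length, is given for SRF-FOXO1 against pMSCV. These were Fbln2 (log2 difference 0.45, SE 0.28), the CCR4-NOT scaffold Cnot1 (0.78, SE 0.22) and Ankrd28 (0.67, SE 0.24), none of them called in edgeR without a block. Cnot1 was called with DESeq2 and with the replicate block over 17 libraries. Of 28 synaptotagmins and exocytic genes 17 were in the table, led by Syt13 (-0.53, SE 0.28), and of 20 ABC transporters 17, led by Abcc1 (0.30, SE 0.19). Only 2 of 7 genes of the LTK and ALK axis were in it, led by Ptn (1.51, SE 1.02), and 0 of the 2 other MYT genes.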

How the data were processed

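The 17 libraries were made from mRNA with a strand-preserving kit, per the labels' protocols. The deposited values are raw read counts per gene, in 1 table of 15062 genes. The submitters' processing notes name FastQC 0.11.8, Trimmomatic 0.39, HISAT2, featureCounts, Subread 2.0.0 and GRCm38; use of strand and of reads with several matches is not given in the sources used here. All genes in the table had 10 counts or more in 3 or more libraries, which leaves out any gene found only in the 2 SRF-PDGFRB libraries. Of 1531 genes with no symbol, 1519 were named by identifier.

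Groups and replicate numbers came from the titles. Counts were scaled by TMM and fitted with edgeR 4.0.16 (limma 3.58.1, R 4.3.3; quasi-likelihood, robust, all libraries, no term for replicate number), with Benjamini-Hochberg adjustment over 15062 genes and calls at 0.05. SE is the absolute log2 fold change over the square root of F. The prior count was 2 and the floor 3 counts. DESeq2 1.42.0, other scaling, filters, replicate blocks and left-out libraries were alternatives, and the code was tested on simulated data. The numbers were taken as pairing because, in pMSCV, SRF, SRF-ICA1L and SRF-RELA, deviations from group means correlated at 0.392 to 0.789 between same-numbered libraries and at most 0.114 between others. Abcb1 transcripts were aligned with mafft 7.526, and genes were placed with GENCODE and RefSeq on GRCm38.

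The 10 genes, the lists of relatives and markers and the comparisons were chosen with earlier results of these data known. Named besides them were relatives that were called or had the highest mean count of a family, the 2 genes most alike in level (those for Glrp1 are not reported here), and the nearest table gene on each side.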

Additional observations from a re-analysis of the deposited data

How the results depend on the processing

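No difference of the 10 genes from pMSCV in SRF-FOXO1, SRF-ICA1L or SRF-RELA changed sign under any alternative run. The genes were chosen on these comparisons, and every run used the same libraries or a part of them, so the stable signs describe the choice. Of the differences of SRF-PDGFRB from SRF, the signs of Hmcn1, Alkal1 and Abcb1b did change, in 2, 3 and 3 alternatives. The count of the 10 genes called in SRF-PDGFRB against SRF was 0, and 1 (Abcb1a) with DESeq2 and with the replicate block over 17 libraries; it was 0 to 0 with 1 library left out.

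Counts of all genes called depended on the fit. For SRF-FOXO1 against pMSCV the 107 genes became 178 with DESeq2's size factors, 1363 with DESeq2, 257 with at least 50 counts in 2 libraries, 29 with only those groups in the fit, 1021 with the replicate block over 17 libraries and 0 with the block in those groups alone, and 0 to 355 with 1 library left out. For SRF-ICA1L the 0 became 45 with DESeq2, 423 with the replicate block in 12 libraries and 20 with the block in the groups alone (0 to 0 with 1 left out). For SRF-RELA the 0 became 105, 914 and 471 under the same settings. For SRF-PDGFRB against SRF the 8 became 58 with DESeq2, 32 with the replicate block over 17 libraries and 0 with the block in those groups alone, and 1 to 3 with 1 library left out. The block over 17 libraries used the numbers also where pairing was not seen, between pMSCV and SRF-FOXO1 and between SRF and SRF-PDGFRB. Only the alternatives with fewer samples or genes differ by construction, and for the others the cause was not tested.

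Relatives called in SRF-FOXO1 numbered 1, and 12 with DESeq2, 3 with the 50-count filter, 0 with only those groups, 8 with the replicate block over 17 libraries, 0 with the block in those groups, and 0 to 3 with 1 left out. In SRF-ICA1L the 0 became 1 with DESeq2 and 3 with the replicate block in 12 libraries, and in SRF-RELA 2 and 6, and 3 with the block in the groups alone. The 50-count filter removed St18 and Alkal1. Hmcn1 in SRF-RELA was -5.98 without its replicate 2. St18, Alkal1 and, in the fusion lines, Hmcn1 rest on few counts. A fit that left 1 SRF-PDGFRB library took its spread from the other groups.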
